A study of Mus musculus with 18 samples.

Results

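Notch signalling genes were followed in 12 mouse liver tumors and in the cell line SB1. The genes were 3 receptors (Notch1, Notch2 and Notch3), 3 ligands (Jag1, Jag2 and Dll4) and 4 target genes (Hes1, Hey1, Heyl and Nrarp), picked by gene symbol. They are 10 of 43346 genes in the tumor table. All 10 were among the 18318 genes that passed the filter on low counts. The tumors had been raised by giving mice an activated AKT, myr-AKT, together with a mutant YAP, the transcriptional coactivator of the Hippo pathway. Each tumor was labelled as cholangiocarcinoma (CCA), a cancer of bile duct type, or as mixed. The groups were 3 YAP-SY CCA tumors, with myr-AKT and YAP carrying S127A and Y357F, 3 YAP-S CCA tumors, with myr-AKT and YAP carrying S127A only, 3 YAP-SY mixed tumors and 3 YAP-S mixed tumors. Every group therefore carried myr-AKT and the S127A change, and Y357F is what the models differed in. The vectors, promoters, strain and age of the mice are not given in the sources used here. SB1 is a single cell line whose genotype label is YAP-S CCA, sequenced as 3 samples. SY1 cells, labelled YAP-SY CCA, were not analysed here.

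Notch receptors are surface proteins that are cut when a ligand of the Jagged or Delta-like family on a neighbouring cell binds them. The released intracellular part joins the DNA-binding protein RBPJ and switches on target genes, among them the Hes and Hey repressors and Nrarp, a feedback inhibitor. In liver, Jag1 and Notch2 are best known for bile duct formation. Dll4 is a ligand of blood vessel endothelium, and Notch3 and Heyl are best known in the mural cells that wrap vessels. In the tumor table (mm10), Notch1, Jag1, Dll4 and Nrarp lie on chromosome 2, Notch2 and Hey1 on chromosome 3, Heyl on 4, Jag2 on 12, Hes1 on 16 and Notch3 on 17. Genes that overlap any of them in position averaged at most 0.512 CPM.

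Total counts ran from 30656499 to 130035221 per tumor. Levels are given as CPM, counts scaled to a common library size, on libraries scaled by the trimmed mean of M-values (TMM). The scaling factors were 0.775 to 0.832 in YAP-SY CCA tumors, 1.14 to 1.3 in YAP-S CCA tumors, 0.931 to 1.07 in YAP-SY mixed tumors and 1 to 1.09 in YAP-S mixed tumors. The summed level of 10 cholangiocyte markers was 45 to 132 CPM in YAP-SY CCA tumors, 402 to 580 CPM in YAP-S CCA tumors, 183 to 243 CPM in YAP-SY mixed tumors and 140 to 361 CPM in YAP-S mixed tumors. The sum was thus lower in the YAP-SY tumors labelled CCA than in the YAP-SY tumors labelled mixed. All 10 markers had a lower point estimate there, and 5 of 10 did not overlap, against 12.1% of tested genes that were lower without overlap. Only Cd24a had an adjusted p under 0.05 (0.0439, edgeR's quasi-likelihood test). The cholangiocyte keratin Krt19 averaged 6.51 CPM in YAP-SY CCA tumors and 60.3 CPM in YAP-S CCA tumors. The labels do not say that tumors of a group came from separate mice, so the p-values measure the spread between these tumors. In whole tumors, fewer cells of a type and less RNA per cell cannot be told apart.

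Setting YAP-SY against YAP-S within CCA asks what the added Y357F change goes with in tumors given the bile duct label. All 10 Notch genes were lower in YAP-SY CCA tumors, with no overlap between the groups in any of the 10. Calls are at a Benjamini-Hochberg adjusted p under 0.05 in edgeR's quasi-likelihood test. By that rule 20.8% of all tested genes were lower and 39.1% differed in either direction. Groups that did not overlap, with YAP-SY lower, were found for 28.3% of tested genes. The median log2 fold change was -1.38 over the 10 genes and -0.0011 over all tested genes.

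Among the receptors, Notch2 was the most abundant per length. YAP-SY CCA tumors 1, 6 and 8 held 97.3, 74.4 and 95.2 CPM of it, against 135, 124 and 136 CPM in YAP-S CCA tumors (numbers 3, 4 and 5, the order used throughout). YAP-SY CCA tumor 6 was the lowest. The log2 fold change was -0.56 (SE 0.17, adjusted p = 0.0191), the smallest of the 10. It no longer passed when YAP-SY CCA tumor 6 was left out (-0.45, adjusted p = 0.0716) or when YAP-S CCA tumor 5 was (-0.55, adjusted p = 0.0515).

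Notch1, a receptor with broad roles in development and blood vessels, had 22.1, 20.5 and 33.1 CPM in YAP-SY CCA tumors. In YAP-S CCA tumors it had 51.8, 48.6 and 51 CPM. Tumor 8 was the highest of the YAP-SY CCA tumors and was still below each YAP-S CCA tumor. Notch1 was 2-fold lower (SE of the log2 value 0.21, adjusted p = 0.00269).

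Notch3 was the least abundant of these receptors per length. It had 3.47, 2.71 and 4.45 CPM in YAP-SY CCA tumors, against 12.1, 8.48 and 10.7 CPM in YAP-S CCA tumors. Each YAP-SY CCA value was lower than the lowest YAP-S CCA value. The log2 fold change was -1.56 (SE 0.27, adjusted p = 0.000946), and the fourth receptor gene, Notch4, which is known from endothelium, was also lower at -1.45 (SE 0.23, adjusted p = 0.00064). Notch4 averaged 5.93 ± 1.14 CPM in YAP-SY CCA tumors and 16.2 ± 3.39 CPM in YAP-S CCA tumors (SD, n = 3 each).

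Jag1 was the most abundant ligand per length in each group. It had 38, 18.2 and 28.9 CPM in YAP-SY CCA tumors, against 80.8, 77.6 and 80.6 CPM in YAP-S CCA tumors. The YAP-S values lay close together, and the YAP-SY values spread over a wider range, with tumor 6 lowest. The log2 fold change was -1.49 (SE 0.25, adjusted p = 0.000771).

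Jag2, a second Jagged ligand, was rare in all tumors and showed the largest fold change of the 10. It had 0.408, 0.335 and 0.835 CPM in YAP-SY CCA tumors, which are 18, 12 and 30 counts. YAP-S CCA tumors had 2.85, 2.5 and 3.02 CPM, which are 282, 215 and 129 counts. The groups lay far apart. The log2 fold change was -2.41, with the widest error of the 10 (SE 0.45, adjusted p = 0.00163).

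Dll4 differed less than the Jagged ligands. Its level was 7.18, 9.48 and 11.2 CPM in YAP-SY CCA tumors, against 17.7, 15.4 and 15.6 CPM in YAP-S CCA tumors. The log2 fold change was -0.80 (SE 0.18, adjusted p = 0.00443). Dll1, a Delta-like ligand outside the 10, did not pass the test, with 4.01 CPM in YAP-SY CCA tumors and 3.64 CPM in YAP-S CCA tumors (log2 fold change 0.13, SE 0.31, adjusted p = 0.762).

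The 4 target genes covered a wide range of change. Heyl, a Hey-family repressor, had 4.55, 8.08 and 9.52 CPM in YAP-SY CCA tumors, against 29.4, 27.5 and 28.2 CPM in YAP-S CCA tumors. Its log2 fold change was -1.94 (SE 0.25, adjusted p = 0.000202), which is 3.85-fold lower. YAP-SY CCA tumor 1 held the lowest value.

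Nrarp, which inhibits Notch activity as part of a feedback loop, had 1.74, 2.12 and 1.89 CPM in YAP-SY CCA tumors, against 7.3, 5.34 and 5.29 CPM in YAP-S CCA tumors. The YAP-SY values lay within a narrow band. The log2 fold change was -1.64 (SE 0.23, adjusted p = 0.000351).

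Hey1, a repressor of the same family as Heyl, had 1.97, 1.93 and 2.14 CPM in YAP-SY CCA tumors, against 4.8, 5.16 and 4.52 CPM in YAP-S CCA tumors. Both groups were tight and did not overlap. The difference was -1.26 on the log2 scale (SE 0.20, adjusted p = 0.000696). Hes1, the best known Hes repressor, had 12.8, 14.7 and 14.9 CPM in YAP-SY CCA tumors, against 22, 22.3 and 21.2 CPM in YAP-S CCA tumors. Its log2 fold change was -0.63 (SE 0.15, adjusted p = 0.00679), the smallest among the targets.

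The direction of all 10 in CCA held under every alternative that was run. With library totals alone as the scale, the median of all genes moved by -0.56, and all 10 genes were called lower, as were 44.0% of all tested genes. The last 4 tumor columns of the table hold 1 tumor of each group, and in them YAP-SY headers begin with Mut1 in place of Mutant. Without these 4 tumors, a check added after seeing the data, 8 of 10 were called lower and Hes1 (adjusted p = 0.0832) and Notch2 (adjusted p = 0.127) were not. Calls over all tested genes fell as well, to 11.7% lower from 20.8% with all 12 tumors.

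**Figure D1:**
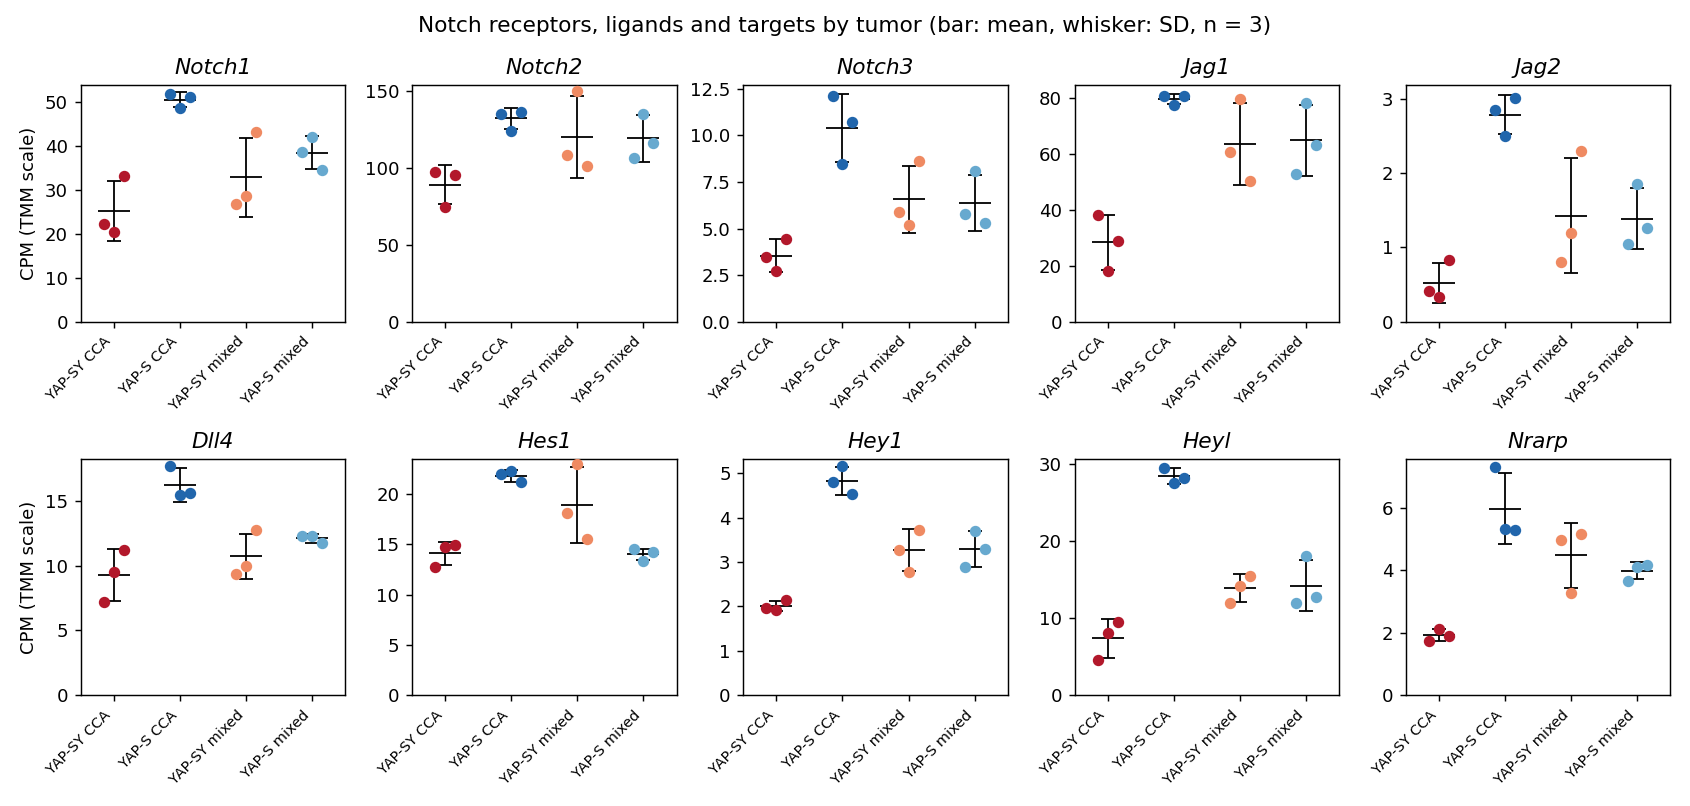
Each panel plots the CPM of a Notch gene, on TMM-scaled libraries, in the 12 tumors by group; points are tumors, bars are means and whiskers are SD (n = 3). In every panel the 3 YAP-SY CCA tumors lie below the 3 YAP-S CCA tumors, while the YAP-SY mixed and YAP-S mixed tumors overlap in all panels except Hes1.

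Since the 10 genes were lower together, the 250 bases upstream of their annotated starts were read from RefSeq (GRCm38.p6, which is mm10). Windows were found for 7 genes, and Hes1, Hey1 and Heyl had none in the table. The core of the RBPJ motif, TGGGAA or its reverse complement TTCCCA, was in 0 of the 7 windows and in 21.6% of 32851 windows of all genes. Of the target genes only Nrarp had a window, and 7 windows are too few to show a lack of the motif. The core of the motif of TEAD, the DNA-binding partner of YAP, is GGAATG, or CATTCC on the other strand. It was in Notch1 only, against 12.6% of all windows. The E-box CACGTG, a palindrome bound by Hey proteins and by other factors of their class, was in Nrarp only, against 6.02% of all windows. The last 2 motifs were chosen after the windows had been looked at, and a match of letters does not show binding. The windows of Nrarp (chr2:25180508-25180757, plus strand) and Notch1 (chr2:26503823-26504072, minus strand) are shown because each holds the match named. Capitals mark the E-box in Nrarp, which begins 108 bases before the start, and CATTCC in Notch1, which begins 233 and 216 bases before the start. The Notch1 start of RefSeq lies inside the gene span of the tumor table (chr2:26457903-26516663), so another upstream start is annotated there.
Nrarp: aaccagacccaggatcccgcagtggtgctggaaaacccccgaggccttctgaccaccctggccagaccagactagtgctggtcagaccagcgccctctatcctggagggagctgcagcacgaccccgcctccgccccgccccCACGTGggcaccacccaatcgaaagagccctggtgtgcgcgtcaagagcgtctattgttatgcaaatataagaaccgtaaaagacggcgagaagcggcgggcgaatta
Notch1: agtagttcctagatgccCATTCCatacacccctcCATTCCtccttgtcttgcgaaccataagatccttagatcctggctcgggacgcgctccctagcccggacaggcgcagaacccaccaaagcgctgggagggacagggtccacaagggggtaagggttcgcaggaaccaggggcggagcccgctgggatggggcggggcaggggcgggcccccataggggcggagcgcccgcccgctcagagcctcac

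In mixed tumors the levels of the 10 genes lay close together in the models. None was called by edgeR, and none by DESeq2 or limma-voom. The background was 0% of tested genes called by edgeR, with 551 genes at an unadjusted p under 0.05, and 11 genes called by DESeq2. At an unadjusted p under 0.05, 1 of the 10 passed, Hes1. It had 18.1, 23 and 15.5 CPM in YAP-SY mixed tumors 3, 5 and 9, against 14.5, 13.3 and 14.2 CPM in YAP-S mixed tumors 2, 7 and 9. It was the only member without overlap, as were 8.35% of all tested genes, and it was higher in YAP-SY, while 4.3% of all tested genes were higher without overlap. Its log2 fold change was 0.43 (SE 0.15, adjusted p = 0.999).

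For the other 9 genes the groups overlapped in mixed tumors. Jag1 had 60.5, 79.5 and 50.3 CPM in YAP-SY mixed tumors, against 52.9, 78.3 and 63.1 CPM in YAP-S mixed tumors. Heyl had 11.9, 14.1 and 15.5 CPM in YAP-SY mixed tumors, against 11.9, 18 and 12.8 CPM in YAP-S mixed tumors. Both genes varied more within each mixed group than between the groups. The 95% interval of the log2 fold change was -0.55 to 0.49 for Jag1 and -0.55 to 0.48 for Heyl, which leaves room for changes in either direction. For Notch2 it was -0.36 to 0.37, and for the rare Jag2 it was -0.85 to 0.98. Notch1, at -0.23 (-0.67 to 0.22), and Dll4, at -0.18 (-0.57 to 0.21), had the lowest point estimates.

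**Figure D2:**
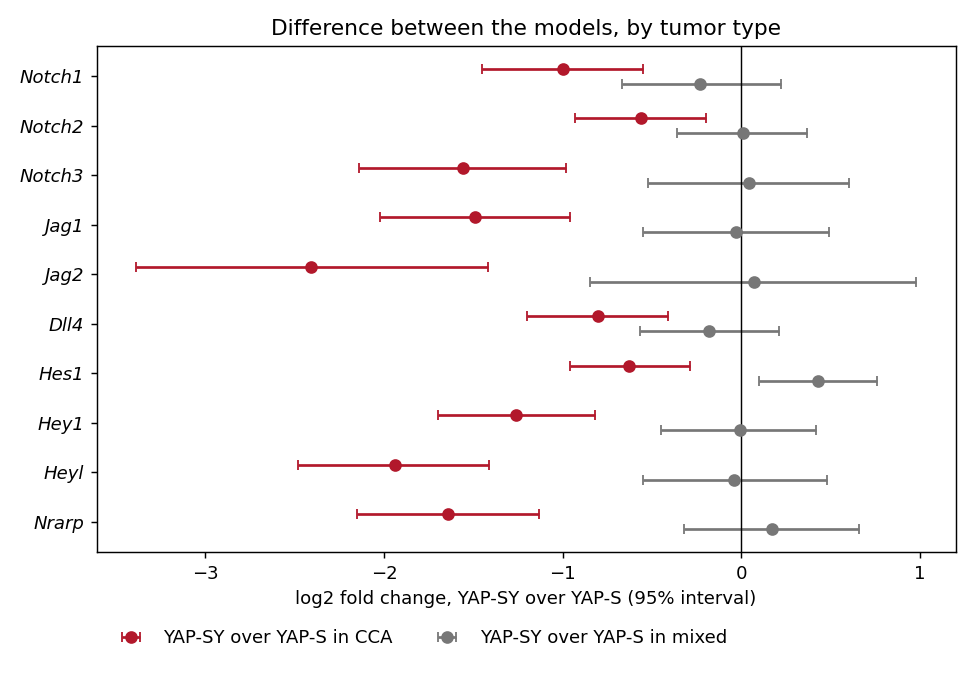
The plot gives the log2 fold change of YAP-SY over YAP-S for each Notch gene in CCA tumors and in mixed tumors, with 95% intervals from the edgeR fit. All 10 intervals in CCA lie below 0, from Notch2 at -0.56 to Jag2 at -2.41, and the mixed intervals include 0 except that of Hes1 (0.10 to 0.76).

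Whether the model effect differed between the tumor types was tested directly, as the CCA effect minus the mixed effect. Of the 10 genes, 7 passed with a more negative effect in CCA, against 10.2% of tested genes that were called in that direction and 15.2% in either. They were Notch3, Jag1, Jag2, Hes1, Hey1, Heyl and Nrarp, and so all 4 targets and both Jagged ligands. Jag2 had the largest value at -2.47 (SE 0.62, adjusted p = 0.0213), followed by Heyl at -1.91 (SE 0.34, adjusted p = 0.00617) and Nrarp at -1.81 (SE 0.32, adjusted p = 0.00617). The values of Notch3, Jag1, Hey1 and Hes1 were -1.60, -1.46, -1.25 and -1.05. Notch1, Notch2 and Dll4 did not pass, at -0.77 (adjusted p = 0.0877), -0.57 (adjusted p = 0.119) and -0.63 (adjusted p = 0.112). The median was -1.35 over the 10 and 0.01 over all tested genes. Without YAP-S mixed tumor 2, the number called was 3 (Hes1, Heyl and Nrarp), where 856 of 18938 tested genes were called lower. Without the last 4 tumor columns it was 1 (Heyl), where 3.65% of tested genes were called lower.

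Within the YAP-S model, CCA tumors were compared with mixed tumors. All 10 point estimates were higher in CCA, and 8 of 10 genes did not overlap, against 20.2% of tested genes that were higher without overlap. None was called in the main fit by edgeR's quasi-likelihood test. There the background was 0% with 3636 genes at an unadjusted p under 0.05, and 7 of the 10 were at an unadjusted p under 0.05. Heyl was 29.4, 27.5 and 28.2 CPM in YAP-S CCA tumors, against 11.9, 18 and 12.8 CPM in YAP-S mixed tumors, at 0.99 (SE 0.24, adjusted p = 0.0636). Hes1 was 22, 22.3 and 21.2 CPM in YAP-S CCA tumors, against 14.5, 13.3 and 14.2 CPM in YAP-S mixed tumors, at 0.64 (SE 0.15, adjusted p = 0.0617). Neither gene overlapped between the groups, and both adjusted p-values lay above the threshold. The call depended on the settings, within edgeR as well as between tools. DESeq2 and a limma-voom fit with the number in the tumor's label as a replicate block each called 2 of 10 (Hes1 and Heyl). They called 8.26% (DESeq2) and 5.41% (replicate block) of all genes. The edgeR fit on these 2 groups alone called 5, and 13.5% of all genes. Limma-voom with quality weights called 7, and 19.7% of all genes.

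Within the YAP-SY model the order was the other way round. All 10 point estimates were lower in CCA than in mixed tumors, and 7 of 10 genes did not overlap, against 12.1% of tested genes that were lower without overlap. Calls were made for Jag1 and Nrarp, both lower, against 2.7% of tested genes called lower. Jag1 was 38, 18.2 and 28.9 CPM in YAP-SY CCA tumors, against 60.5, 79.5 and 50.3 CPM in YAP-SY mixed tumors, at -1.16 (SE 0.24, adjusted p = 0.0309). Nrarp was 1.74, 2.12 and 1.89 CPM in YAP-SY CCA tumors, against 4.99, 3.28 and 5.16 CPM in YAP-SY mixed tumors, at -1.22 (SE 0.23, adjusted p = 0.0234). Neither gene overlapped between the groups. A limma-voom fit with the label's number as a replicate block gave an adjusted p of 0.0538 for Jag1 and 0.0629 for Nrarp. It called no member, and 0.24% of all tested genes lower. Limma-voom with quality weights and no block also called no member, so the block and the change of test cannot be told apart here. Leaving out YAP-SY CCA tumor 6 or 8 also left no member called. DESeq2 called 6 of 10 lower, and 7.55% of all tested genes.

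Levels per kilobase of gene model, which allow genes to be set side by side, ordered the 10 in a similar way in all groups. Notch2, Jag1 and Hes1 were the top 3 everywhere and Jag2 was last. In YAP-SY CCA tumors the order was Notch2 (8.47 CPM per kilobase), Hes1 (6.94) and Jag1 (4.87), and the ranges of Notch2 and Hes1, and of Hes1 and Jag1, overlapped. In YAP-S CCA tumors Jag1 led at 13.7 CPM per kilobase, above Notch2 at 12.5 and Hes1 at 10.7, with no overlap between these neighbours. Heyl was at 1.44 CPM per kilobase in YAP-SY CCA tumors, below Dll4 and Notch1, and at 5.55 in YAP-S CCA tumors, above both. The ranges of Heyl and Notch1 overlapped in YAP-SY CCA tumors, where Heyl was the lower in 2 of 3. In YAP-S CCA tumors the ranges of Heyl and Dll4, its neighbour in the order, did not overlap. In YAP-SY mixed tumors Notch2 and Jag1 led at 11.4 and 10.9 CPM per kilobase, and in YAP-S mixed tumors at 11.3 and 11.1, and in both groups their ranges overlapped.

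The make-up of the ligand and receptor pools was described by shares. Jag1 made up 57.3% ± 11.2 of the summed per-kilobase level of Jag1, Jag2, Dll4 and Dll1 in YAP-SY CCA tumors and 70.4% ± 0.966 in YAP-S CCA tumors (SD, n = 3 each). The ranges overlapped, at 49.3% to 70% in YAP-SY CCA tumors and 69.4% to 71.4% in YAP-S CCA tumors. Dll1 made up 11.3% ± 2.86 in YAP-SY CCA tumors and 4.45% ± 0.832 in YAP-S CCA tumors, and these ranges did not overlap. Among the 4 receptors, Notch2 made up 74.3% ± 3.52 in YAP-SY CCA tumors and 64.7% ± 1.67 in YAP-S CCA tumors. Notch3 made up 3.83% ± 0.42 in YAP-SY CCA tumors and 6.66% ± 0.737 in YAP-S CCA tumors. Shares add up to a whole, so a higher share of a gene can go with a lower level of it, as for Notch2. These shares were described and not tested.

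Beyond the 10, lists of 59 other genes of the pathway were examined, of which 54 were tested. In CCA tumors 7 of the 54 were higher and 21 lower in YAP-SY, where 18.3% of all tested genes were higher and 20.8% lower. With library size alone as the scale, none of the 54 was called higher and 38 were called lower, beside 760 genes called higher and 8064 lower among all 18318. The 54 had a median log2 fold change of -0.40. The receptor-cutting proteases and gamma-secretase parts had a median near 0, at -0.09. Of 10 tested, 3 were lower (Adam10, Adam17 and Aph1b) and 7 did not pass. Of the 5 sugar transferases that modify Notch, the fringe genes Lfng and Mfng were lower, at -1.71 and -1.49. Rbpj itself was lower by a small amount, at 23.4 ± 2.9 CPM in YAP-SY CCA tumors and 30.8 ± 1.78 CPM in YAP-S CCA tumors (log2 fold change -0.40, SE 0.14, adjusted p = 0.0342).

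With TMM scaling, genes of the nuclear complex and the corepressors were called in both directions; no higher call among them, or among the turnover genes, was made with library size alone. Of 8 tested in the complex, 1 was higher and 2 lower; Kat2b, an acetyltransferase, was higher at 152 ± 28.9 CPM in YAP-SY CCA tumors, against 84.2 ± 0.99 CPM in YAP-S CCA tumors (log2 fold change 0.85, SE 0.15, adjusted p = 0.00102). Of 8 corepressor genes, 3 were higher and 3 lower. Of 13 genes for ubiquitination, endocytosis and turnover, 3 were higher and 5 lower. Mib1, an E3 ligase that makes ligands active, was among the higher ones at 125 ± 23.2 CPM in YAP-SY CCA tumors and 78.2 ± 10.5 CPM in YAP-S CCA tumors. Neurl1a, another E3 ligase of the Neuralized family, had the second largest fall, at 0.54 ± 0.259 CPM in YAP-SY CCA tumors and 7.11 ± 1.15 CPM in YAP-S CCA tumors (log2 fold change -3.70, SE 0.52, adjusted p = 0.000328).

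Of 7 other target genes tested, 5 were lower and none higher. Dtx1, a ubiquitin ligase gene that Notch switches on in lymphocytes, had the largest fall of all pathway genes at -4.15 (SE 0.66, adjusted p = 0.000611), with 0.416 ± 0.235 CPM in YAP-SY CCA tumors and 7.5 ± 1.02 CPM in YAP-S CCA tumors. Sox9, a bile duct transcription factor, had 14.2 ± 6.01 CPM in YAP-SY CCA tumors and 56.8 ± 6.95 CPM in YAP-S CCA tumors (adjusted p = 0.00112). In mixed tumors 0 of the 54 were called by edgeR and 0 were at an unadjusted p under 0.05. Of all 18318 tested genes, 0% were called and 551 were at an unadjusted p under 0.05. Of the 54, 12 were lower in the test of the difference between the tumor types, where 10.2% of all tested genes were called lower. Among the 12 were Dtx1 (-4.43), Neurl1a (-4.04) and Notch4 (-1.38, adjusted p = 0.0167). Rbpj was not called (-0.52, adjusted p = 0.082). For CCA against mixed tumors of the YAP-S model, the main edgeR fit called 0 of the 54, beside 0% of all tested genes. At an unadjusted p under 0.05 were 13 of the 54, all higher in CCA, beside 3636 of all 18318 genes in either direction. DESeq2 called 10 of the 54, beside 8.26% of all genes in either direction. In the edgeR fit Notch4 was at 0.72 (adjusted p = 0.115) and Rbpj at 0.43 (adjusted p = 0.116). In the YAP-SY model 5 of the 54 were called lower in CCA by the main edgeR fit, beside 2.7% of all tested genes. Notch4 was at -0.66 (adjusted p = 0.128) and Rbpj at -0.09 (adjusted p = 0.727). Sox9 and the cyclin gene Ccnd1 were among these 5, at -1.55 and -1.05. Limma-voom called 0 of the 54, both with the replicate block and with quality weights and no block. It called 0.24% (block) and 0.0764% (quality weights) of all tested genes lower.

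**Figure D3:**
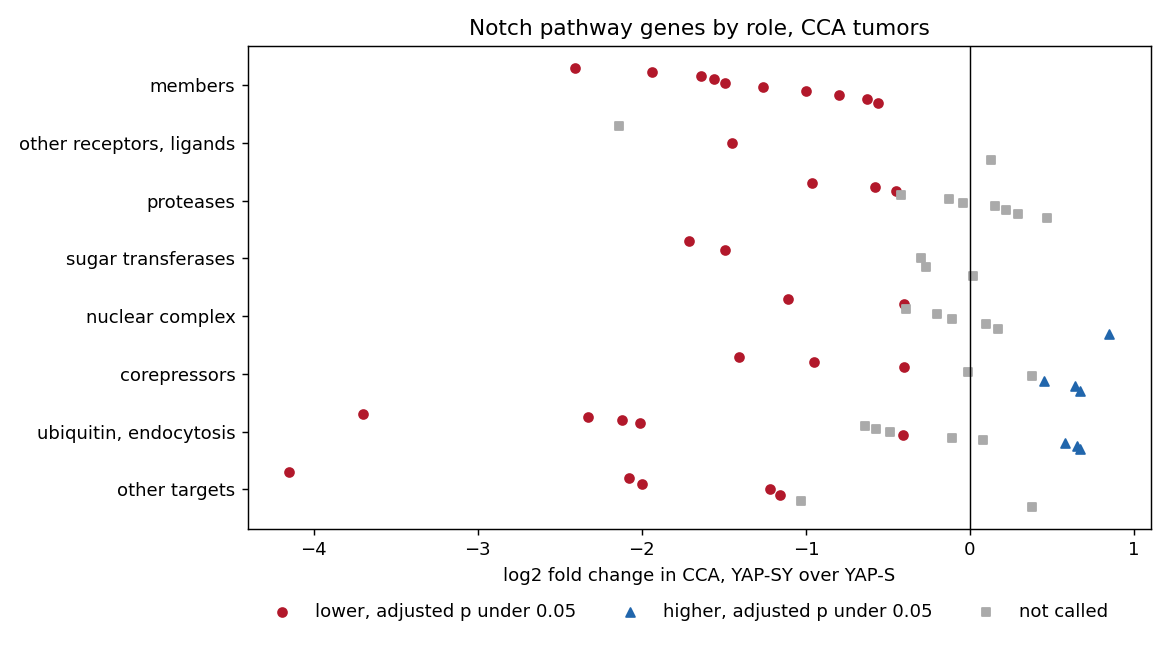
The plot gives the log2 fold change of YAP-SY over YAP-S in CCA tumors for the 10 Notch genes (top row, members) and 54 other pathway genes, by role; red points were called lower, blue triangles higher, and grey squares not called. All 10 points of the top row are red, while the protease row holds 3 red points, Aph1b lowest at -0.96, and 7 grey squares, and the corepressor row holds 3 red and 3 blue symbols.

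Markers of several cell types moved with the Notch genes in CCA. Of 10 cholangiocyte markers, 7 were lower in YAP-SY. Of 12 mural cell and fibroblast markers, 10 were lower, with a summed level of 405 to 474 CPM in YAP-SY CCA tumors and 1562 to 1915 CPM in YAP-S CCA tumors. Of 11 leukocyte markers 8 were lower, with sums of 124 to 217 CPM in YAP-SY CCA tumors and 272 to 416 CPM in YAP-S CCA tumors. Hepatocyte markers went the other way, with 9 of 10 higher and sums of 142097 to 164439 CPM in YAP-SY CCA tumors and 48617 to 62714 CPM in YAP-S CCA tumors. Endothelial markers were mixed, with 3 of 12 lower (Cdh5, Tie1 and Esam) and 2 higher (Kdr and Clec4g). Their sums overlapped, at 453 to 592 CPM in YAP-SY CCA tumors and 399 to 509 CPM in YAP-S CCA tumors. No list was at 0 as a whole in any group. In the test of the difference between the tumor types, 8 of 12 mural and fibroblast markers and 6 of 11 leukocyte markers were called lower. So were 3 of 10 cholangiocyte markers, while 5 of 10 hepatocyte markers were higher and 0 of 12 endothelial markers were called. Within YAP-S, all 12 mural and fibroblast estimates were higher in CCA than in mixed tumors, with 0 called. The part of these cell types in the Notch results was not tested.

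Each Notch gene was also set against each list by subtracting the list's mean log2 CPM. Against the endothelial list all 10 were lower in YAP-SY CCA tumors than in YAP-S CCA tumors without overlap. Dll4 stood at -1.71 ± 0.15 relative to it in YAP-SY CCA tumors and at -0.92 ± 0.14 in YAP-S CCA tumors (SD, n = 3 each). The endothelial list mean was 4.73, 4.85 and 5.13 log2 CPM in YAP-SY CCA tumors, against 5.08, 5.01 and 4.74 in YAP-S CCA tumors. With so small a change in the list, the subtraction largely repeats each gene's own fold change. The list mean joins 7 markers with lower and 5 with higher point estimates in YAP-SY CCA tumors, so its small change does not hold for each marker. Against the mural and fibroblast list the picture differed, since 8 of 10 were above and 2 overlapped (Heyl and Jag2). The list itself had a median log2 fold change of -2.12, so a gene that fell less stands above it. Jag2 stood lower against it, at -4.92 ± 0.47 in YAP-SY CCA tumors and at -4.48 ± 0.15 in YAP-S CCA tumors. Heyl, whose level fell by 1.94 on the log2 scale, stood at -1.11 ± 0.54 relative to that list in YAP-SY CCA tumors and at -1.14 ± 0.09 in YAP-S CCA tumors. Notch3 stood at -2.13 ± 0.15 in YAP-SY CCA tumors and at -2.59 ± 0.15 in YAP-S CCA tumors. Relative to the cholangiocyte list, Jag1 stood at 3.61 ± 0.45 in YAP-SY CCA tumors and at 2.65 ± 0.07 in YAP-S CCA tumors. In 6 of 10 genes the value against the cholangiocyte list was higher in YAP-SY CCA tumors without overlap, and in 4 it overlapped. The cholangiocyte list itself fell, with a median log2 fold change of -2.17, so a gene that fell less stands above it. Against the hepatocyte list all 10 were lower in YAP-SY CCA tumors without overlap. That list rose (median 1.29) while the 10 genes fell, so this outcome was fixed in advance. Against the leukocyte list Heyl and Jag2 were lower without overlap, and 8 of 10 genes overlapped. The share of all tested genes that separates in these ways was not computed, so these counts cannot be read as particular to the Notch genes.

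**Figure D4:**
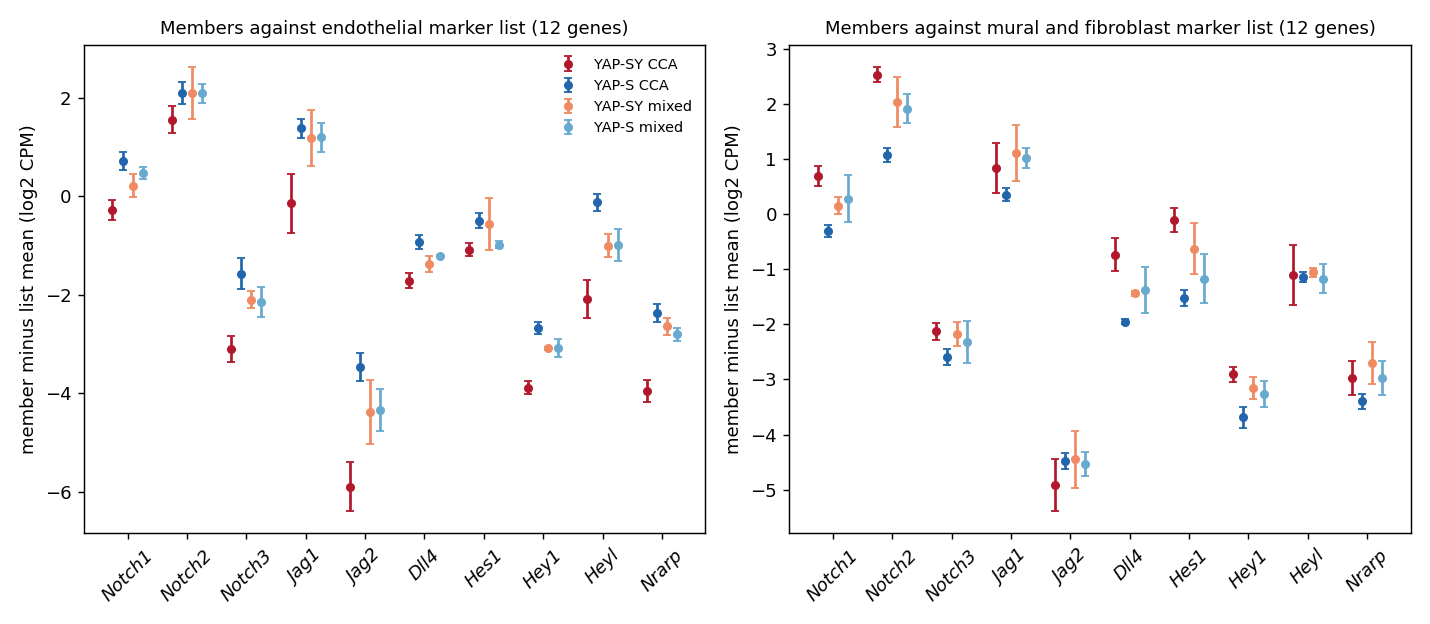
The plots give each Notch gene's log2 CPM minus the mean log2 CPM of the endothelial marker list (left) and of the mural and fibroblast marker list (right), as mean and SD over 3 tumors by group. Left, YAP-SY CCA values lie below the YAP-S CCA values for all 10 genes. Right, they lie above for 8 genes and coincide for Heyl at -1.11 in YAP-SY CCA tumors and -1.14 in YAP-S CCA tumors. For Jag2 the mean lies lower, at -4.92 in YAP-SY CCA tumors and -4.48 in YAP-S CCA tumors, with overlap.

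SB1 cells showed which of the 10 genes are expressed by a cell line of the YAP-S CCA genotype. Its samples held 25341968 to 30541185 counts, and its CPM values were taken on library totals. Endothelial markers were largely missing, with 10 of 12 under 1 CPM and 5 at 0, whereas Krt19 was at 1100, 1397 and 1789 CPM. Epcam, a bile duct surface marker, was nearly absent at 0.196, 0.395 and 0.114 CPM. Of the mural and fibroblast markers only 4 of 12 were under 1 CPM, so that list is not absent from these cells. Of 10 hepatocyte markers 5 were under 1 CPM, while Alb was at 1113, 612 and 613 CPM and Hnf4a averaged 54.8 ± 2.23 CPM. Of 11 leukocyte markers 8 were under 1 CPM, and Csf1r averaged 54.5 ± 16.2 CPM. The endothelial list marker Esam averaged 24.4 ± 3.06 CPM.

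Jag1 was high in SB1 at 131, 156 and 136 CPM, and so was Notch2 at 149, 144 and 159 CPM. Hes1 had 34.2, 33.4 and 30.1 CPM, and Hey1 had 28.4, 18 and 16.1 CPM. The ligand Jag2 had 10.8, 15.4 and 20.4 CPM. All of these were detected in every sample with at least 330 counts. Notch1 was lower at 12.1, 12.9 and 6.05 CPM, Nrarp had 6.97, 4.74 and 8.07 CPM, and Notch3 had 1.74, 1.5 and 3.23 CPM. Dll4 and Heyl were at the edge of detection, with 2, 1 and 8 counts for Dll4 and 5, 2 and 0 counts for Heyl. A count of 0 allows up to 3 counts, which is 0.0982 to 0.118 CPM in these libraries, and covers counting error only.

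Set side by side without a test, since the SB1 and tumor tables were made separately, Dll4 was at 0.0354 CPM per kilobase in SB1 and at 4.21 in YAP-S CCA tumors. Heyl was at 0.0158 CPM per kilobase in SB1 and at 5.55 in YAP-S CCA tumors. Jag1 was at 24.1 in SB1 and at 13.7 in YAP-S CCA tumors, Jag2 at 3.83 in SB1 and 0.688 in YAP-S CCA tumors, and Hey1 at 6.37 in SB1 and 1.48 in YAP-S CCA tumors. The scales differ, since SB1 values are on library totals and tumor values on TMM-scaled libraries. On library totals YAP-S CCA tumors averaged 96 CPM of Jag1 and 159 CPM of Notch2, against 141 and 151 CPM in SB1. The order within SB1 began with Jag1, Hes1 and Notch2, which are also the top 3 in YAP-S CCA tumors. The pathway genes Rbpj, at 79.9 ± 4.2 CPM, and Dll1, at 8.79 ± 2.24 CPM, were present in SB1, whereas Notch4 averaged 0.286 ± 0.146 CPM (SD, n = 3 each).

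**Figure D5:**
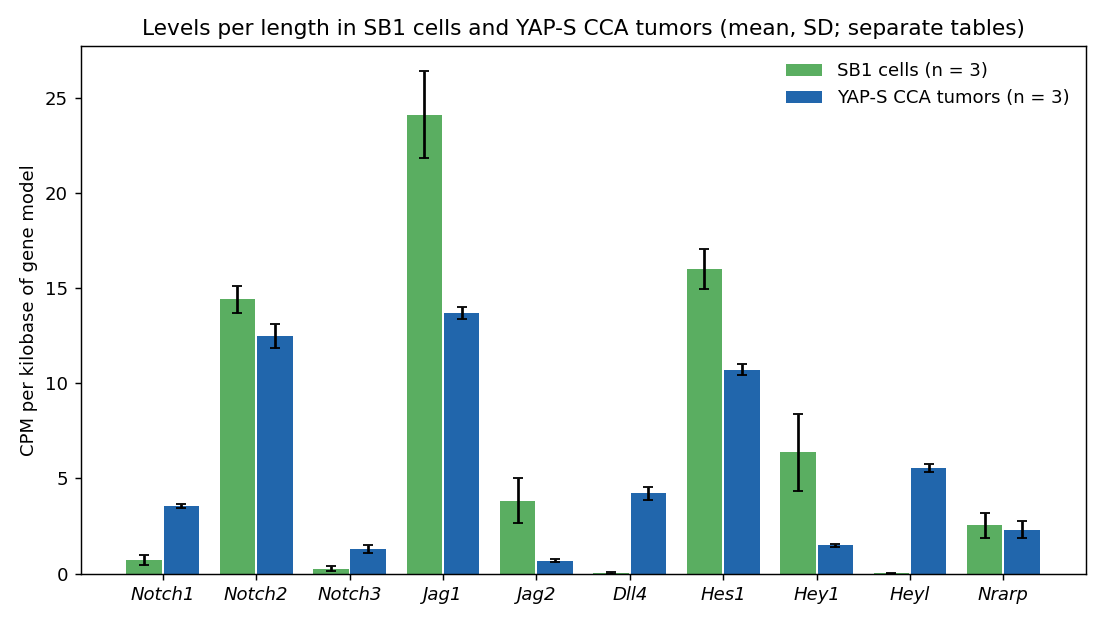
Bars give the mean CPM per kilobase of gene model of each Notch gene in SB1 cells (left bar) and YAP-S CCA tumors (right bar), with SD as whiskers (n = 3 each). The tables were made separately, and SB1 values are on library totals while tumor values are on TMM-scaled libraries. Jag1, Notch2 and Hes1 are the tallest bars in both, and Dll4 (0.0354) and Heyl (0.0158) are barely visible in SB1.

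The genes most like the Notch genes across the 12 tumors were ranked by Pearson's r with the mean standardised level of each class, among 10575 candidates, as a description of samples that share their groups. For the ligands they were Col4a1 (0.992) and Col4a2 (0.99), chains of basement membrane collagen, and Phlda3 (0.99). For the receptors they were Homer3 (0.993), Clip2 (0.99) and Tmem132a (0.988). For the targets they were Iffo2 (0.984), Armc9 (0.982) and Tbx20 (0.978). With group means removed, r was 0.988 for Col4a1 and 0.983 for Homer3, and 0.622 to 0.662 for the genes like the targets. For all 10 together they were Unc5b (0.99), a netrin receptor of endothelium, and the collagen genes Col15a1 (0.988) and Col5a2 (0.986).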

How the data were processed

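RNA sequencing counts per gene were used for 12 tumors and 3 SB1 samples. The tumor values are counts that the authors corrected before they were deposited, and what was corrected is not given in the sources used here; the SB1 values are raw counts, deposited in a table of their own. STAR and mm10 are named in the submitters' processing notes, libraries were made with a TruSeq mRNA kit per the labels' protocols, and the counting tool and annotation are not given in the sources used here. Of the columns deposited, 3 match no label and were not used. Gene symbols that had become dates, 27 in all, were restored among the tumor genes. The filter on low counts was filterByExpr with the groups, after which 18318 genes remained; scaling was by TMM. A fit of all 12 tumors with 1 term per group was made in edgeR 4.0.16 (R 4.3.3) with glmQLFit and glmQLFTest, with p-values adjusted over all tested genes (Benjamini-Hochberg, threshold 0.05). List means used log2 CPM with a prior count of 1. Alternatives used DESeq2 1.42.0, limma 3.58.1 (voom), other scalings and filters, tumors left out and a replicate block. The block was fitted in limma-voom and not in edgeR. The code was tested on simulated data. All 10 genes were named, with Rbpj, Notch4 and, per comparison, the 2 largest rises and falls among called pathway genes at 5 CPM or more; Dll1, Lfng, Mfng, Adam10, Adam17 and Aph1b were added after their values were seen. The members and lists were chosen with earlier results of these data known.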

Additional observations from a re-analysis of the deposited data

Results flagged for a closer look

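The effect of YAP-SY over YAP-S was more negative in CCA tumors than in mixed tumors for 7 of the 10 Notch genes, by edgeR's quasi-likelihood test of that difference. The log2 values of the difference were -1.60 for Notch3, -1.46 for Jag1, -2.47 for Jag2, -1.05 for Hes1, -1.25 for Hey1, -1.91 for Heyl and -1.81 for Nrarp. Each of the 7 was lower in 3 of 3 YAP-SY CCA tumors than in every YAP-S CCA tumor, and 6 of them overlapped between the models in mixed tumors. Hes1 was the exception, higher in 3 of 3 YAP-SY mixed tumors than in every YAP-S mixed tumor. The same direction was called for 10.2% of all tested genes. It was also called for 8 of 12 mural and fibroblast markers and 6 of 11 leukocyte markers, and for 0 of 12 endothelial markers.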

How the results depend on the processing

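In CCA, YAP-SY against YAP-S, 8 to 10 of the 10 Notch genes were called lower in every alternative, 9 to 10 where a tumor was left out. In mixed tumors none was called in any alternative. For the difference between tumor types the number was 6 to 10 across the planned settings that kept every tumor, 3 to 8 where a tumor was left out (3 without YAP-S mixed tumor 2), and 1 without the last 4 tumor columns, a setting added after seeing the data like the column set as a covariate. For CCA against mixed in YAP-S, the main edgeR fit called 0 of 10. It was 2 with library size alone, with the DESeq2 Wald test, with a filter at a mean CPM of 5 and with the replicate block, 1 with no count filter, 5 with only the 2 groups compared and 7 with limma-voom quality weights. For CCA against mixed in YAP-SY, the main edgeR fit called 2. It was 0 with limma-voom, with only the 2 groups compared, with the replicate block, with the column set as a covariate and without the last 4 columns, 6 with DESeq2, 8 with library size alone and 0 to 2 where a tumor was left out. Calls over all tested genes moved with these settings too. The share called lower in CCA was 20.8%, and 11.7% without the last 4 columns. For the difference between tumor types it was 10.2%, 22.8% with library size alone and 3.65% without the last 4 columns. For CCA against mixed in YAP-SY it was 2.7%, and 10.9% with library size alone.

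Of the 54 other pathway genes, 28 were called in CCA (7 higher, 21 lower), and 38 with library size alone (all lower). The number was 18 without the last 4 columns and 20 to 25 where a tumor was left out. Of all tested genes, 39.1% were called in CCA, 48.2% with library size alone and 18.3% without the last 4 columns. For the difference between tumor types 12 of the 54 were called, and 25 with library size alone. The number was 5 without the last 4 columns and 7 to 14 where a tumor was left out. Of all tested genes, 15.2% were called for that difference, 23.6% with library size alone and 3.95% without the last 4 columns. For CCA against mixed in YAP-S the number was 0, with 1 under DESeq2 size factors and under upper quartile factors. It was 6 at a mean CPM of 5, 7 with no count filter and with the replicate block, and 8 with library size alone. It was 10 with DESeq2, 12 with only the 2 groups compared and 14 with limma-voom quality weights. Of all tested genes, 0% were called in the main fit, 3.88% with library size alone and 5.41% with the replicate block. The share was 8.26% with DESeq2, 13.5% with only the 2 groups compared and 19.7% with limma-voom quality weights. For CCA against mixed in YAP-SY it was 5, with 0 under limma-voom, only the 2 groups compared, the replicate block, the column set as a covariate and without the last 4 columns, 8 with no count filter, 9 with DESeq2, 13 with library size alone and 0 to 6 where a tumor was left out.

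Values for a single Notch gene changed sign in 27 of 895 cases, of which 25 are the near-zero log2 fold changes in mixed tumors. There the ranges with a tumor left out were -0.13 to 0.09 for Hey1, -0.15 to 0.17 for Heyl, -0.23 to 0.13 for Jag1, -0.46 to 0.34 for Jag2, -0.19 to 0.12 for Notch2 and -0.21 to 0.25 for Notch3. The replicate block gave 0.02 for Hey1, 0.01 for Heyl and -0.02 for Notch2. Limma-voom gave -0.27 for Jag2 and -0.08 for Notch2, library size alone -0.04 for Notch2 and -0.03 for Notch3, upper quartile factors -0.002 for Notch2, and the last 4 columns left out -0.02 for Notch3. In YAP-SY, CCA against mixed, limma-voom turned Notch1 to 0.01 and Dll4 to 0.0043. Jag2 was not tested at a mean CPM of 5. The cause was not tested.

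With library size alone, the all-gene median was -0.51 for the difference between tumor types, 0.20 for CCA against mixed in YAP-S and -0.30 in YAP-SY, against 0.01, -0.02 and -0.01 with TMM. Numbers 3, 5 and 9 in the tumor labels occur in both models. After group means were taken off, tumors that share a number correlated by 0.21, 0.60 and 0.11 over genes of at least 5 CPM and by 0.18, 0.35 and 0.09 over all tested genes, and the consensus correlation within a number was 0.22. Both number 5 tumors matched each other best over all tested genes, against 0 of 2 for number 9 and 1 of 2 for number 3. Every correlation is over 0.1 in the first gene set and not in the second, so whether the numbers pair the tumors was not settled. The replicate block, fitted in limma-voom, called 10 of 10 in CCA and 7 for the difference between tumor types, the same numbers as edgeR without a block. With 3 tumors a group, and 12 to 30 counts of Jag2 per YAP-SY CCA tumor, small changes could not be seen.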
